A study of Mus musculus with 5 samples.

Results

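The 10 genes of the hepatocyte growth factor and insulin-like growth factor axes described here were followed through 5 single-cell libraries of mouse liver. They form a fixed list, 10 of 31053 genes in the count tables. The rule that lists them uses no measured value, but the list was chosen with earlier results of these data known. It holds the growth factor genes Hgf, Igf1 and Igf2, the receptor genes Met and Igf1r, and the binding protein genes Igfbp3, Igfbp4, Igfbp5, Igfbp6 and Igfbp7. All 10 were found in every library.

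HGF is a secreted ligand that is released as an inactive chain, is cut by serine proteases and then binds the receptor tyrosine kinase MET. In the liver it is known as a product of hepatic stellate cells, the vitamin A-storing pericytes of the sinusoid, and as a mitogen for hepatocytes, which carry MET. IGF1 and IGF2 signal mainly through IGF1R, while the IGFBP family holds these ligands in the extracellular space and is itself cut by proteases such as pregnancy-associated plasma protein A. IGFBP7 belongs to the family by sequence and binds IGFs only weakly.

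All mice were males of the genotype Rosa26mTmG;Col1a1-Cre on the C57BL/6J background, in which a Cre driven by the Col1a1 promoter switches on GFP. DEN+WAD mice received diethyl nitrosamine at 10 mg/kg at 2 weeks of age and, from 6 weeks, a liquid Western alcohol diet with 3.5% v/v ethanol for 5 months; control mice received saline and chow. Liver cells were sorted on vitamin A autofluorescence (VitA) and GFP (Col1a1) into VitA+Col1a1+ and VitA-Col1a1+ gates, each from both treatments, and DEN+WAD liver also gave a library labelled VitA-Col1a1-. GFP marks cells in which the Cre has been active at any time, so the gate does not read present Col1a1 expression, and how many mice went into a library was not given in the sources used here.

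Each group was 1 library, so a difference below has no replicate check, carries no p-value, and its interval covers counting error only. The libraries held 259 to 10481 cells and 6145748 to 149936344 unique molecular identifiers (UMIs, counted RNA molecules), with medians of 9106 to 24077 UMIs per cell. Levels are UMIs per 1000000 UMIs of the library (CPM), read from the ends of transcripts, and are compared between libraries rather than between genes. Between 0 and 21 cell barcodes were shared by any pair of libraries, at most 0.749% of the smaller one. All libraries are labelled as hepatic stellate cells. All 14 genes of a stellate list (Lrat, Reln, Des, Lhx2 and others) were above 5 CPM in every library, with a summed level of 33563 and 34043 CPM in the VitA+ libraries of chow and DEN+WAD liver, 6277 and 13831 CPM in the VitA-Col1a1+ libraries, and 6851 CPM in the library labelled VitA-Col1a1-. The label of the last library goes against its RNA: it held Col1a1 at 1062 CPM, above the 304 CPM of VitA+Col1a1+ cells from DEN+WAD liver, and only 46.5% of its cells lay in mesenchymal-like clusters, against 78.4% to 95.7% elsewhere. It enters none of the comparisons between gates or treatments. Its count table also names another software version (6.1.2, against 3.1.0 in the others).

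The gene starts of the members whose levels differed between the VitA gates in both livers are shown here, from 250 bases before to 50 bases after the start (RefSeq, GRCm38.p6). Capitals mark a TATA box (TATAAA), an AP-1 motif (TGACTCA), a TEAD motif (CATTCC) or a GC box (GGGCGG), each searched on both strands. Each line runs 5' to 3' on the strand of the gene: Hgf at chr5:16553245-16553544 (+), the upstream one of its 2 listed starts, Igf1 at chr10:87860861-87861160 (+), Igfbp4 at chr11:99040994-99041293 (+), Igfbp5 at chr1:72874816-72875115 (-) and Igfbp6 at chr15:102143936-102144235 (+).
Hgf: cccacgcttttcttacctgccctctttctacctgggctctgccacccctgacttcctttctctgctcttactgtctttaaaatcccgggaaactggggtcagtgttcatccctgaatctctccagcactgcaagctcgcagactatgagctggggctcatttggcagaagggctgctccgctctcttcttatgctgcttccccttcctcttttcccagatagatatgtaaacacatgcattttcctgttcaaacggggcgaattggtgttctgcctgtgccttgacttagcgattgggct
Igf1: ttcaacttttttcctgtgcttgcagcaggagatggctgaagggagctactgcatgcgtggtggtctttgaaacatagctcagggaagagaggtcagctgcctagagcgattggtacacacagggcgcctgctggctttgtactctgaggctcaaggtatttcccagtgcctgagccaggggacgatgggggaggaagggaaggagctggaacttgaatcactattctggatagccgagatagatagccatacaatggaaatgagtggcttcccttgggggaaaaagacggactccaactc
Igfbp4: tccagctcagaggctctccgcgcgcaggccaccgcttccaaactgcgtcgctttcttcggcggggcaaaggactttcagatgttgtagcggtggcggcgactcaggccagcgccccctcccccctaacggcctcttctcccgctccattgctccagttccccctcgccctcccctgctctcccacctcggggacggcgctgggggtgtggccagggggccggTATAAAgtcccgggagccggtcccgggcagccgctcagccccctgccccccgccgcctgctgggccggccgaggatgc
Igfbp5: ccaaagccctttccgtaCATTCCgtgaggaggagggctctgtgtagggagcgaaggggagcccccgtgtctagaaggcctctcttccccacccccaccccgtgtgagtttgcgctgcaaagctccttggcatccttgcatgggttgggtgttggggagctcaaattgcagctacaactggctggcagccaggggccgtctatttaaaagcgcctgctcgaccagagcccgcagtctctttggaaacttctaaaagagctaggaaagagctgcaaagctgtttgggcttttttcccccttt
Igfbp6: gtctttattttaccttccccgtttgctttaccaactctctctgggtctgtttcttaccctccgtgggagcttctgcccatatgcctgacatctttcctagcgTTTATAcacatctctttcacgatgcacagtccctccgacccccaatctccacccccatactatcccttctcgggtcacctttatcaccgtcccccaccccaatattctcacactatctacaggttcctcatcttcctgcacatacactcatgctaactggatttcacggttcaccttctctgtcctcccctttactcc
TATAAA stood in the Igfbp4 window on the gene's strand and in the Igfbp6 window on the other strand, as TTTATA, and in 13.6% of 32851 mouse promoter windows of this length. CATTCC stood once in the Igfbp5 window and in 14.7% of all windows. The Hgf and Igf1 windows held none of the 4 motifs, of which GGGCGG was found in 35.7% and TGACTCA in 5.202% of all windows. Hgf itself spans chr5:16553495-16620152, Igf1 chr10:87858265-87937042, Igfbp4 chr11:99041244-99054392, Igfbp5 chr1:72857932-72874884 and Igfbp6 chr15:102144362-102149511 (GENCODE M21, all protein coding).

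Hgf was highest in the VitA+ gate. Its level was 824 CPM in VitA+Col1a1+ cells of chow liver and 815 CPM in those of DEN+WAD liver, against 124 CPM in VitA-Col1a1+ cells of chow liver, 320 CPM in those of DEN+WAD liver and 212 CPM in the library labelled VitA-Col1a1-. The intervals of the 2 VitA+ libraries overlapped, and each of the other libraries lay apart from its neighbour in the order. After thinning every cell to 2000 UMIs, Hgf was found in 75.7% and 75.3% of VitA+ cells (chow and DEN+WAD), in 19.2% and 41.1% of VitA-Col1a1+ cells, and in 28.5% of cells of the library labelled VitA-Col1a1-. Without thinning these shares were 96.9%, 97.1%, 67.7%, 78.3% and 52.7%. T or NK-like cells of the last library, which are not a known source of HGF, showed Hgf in 2.53% of 158 thinned cells (median of 4360 UMIs per cell before thinning, against 9106 in the whole library).

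Igf1, Igfbp4, Igfbp5 and Igfbp6 ran the other way. Igf1, the main ligand of IGF1R, stood at 14.5 and 13.2 CPM in the VitA+ libraries of chow and DEN+WAD liver, at 144 and 67.2 CPM in the VitA-Col1a1+ libraries, and at 160 CPM in the library labelled VitA-Col1a1-. Igfbp4, whose product is the main substrate of pregnancy-associated plasma protein A, stood at 301 and 229 CPM in the VitA+ libraries, at 1574 and 1103 CPM in the VitA-Col1a1+ libraries and at 415 CPM in the library labelled VitA-Col1a1-. No VitA+ library reached a VitA- library for either gene.

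Igfbp5 and Igfbp6 were close to absent from VitA+ cells. Igfbp5 gave 1 UMI in the VitA+ chow library (0.163 CPM) and 192 UMIs in the VitA+ DEN+WAD library (1.28 CPM), but 333 and 66.9 CPM in the VitA-Col1a1+ libraries of chow and DEN+WAD liver and 40.2 CPM in the library labelled VitA-Col1a1-. Igfbp6, which binds IGF2 in preference to IGF1, gave 0 UMIs in the VitA+ chow library, which allows up to 0.488 CPM (3 UMIs), and 0.320 CPM in the VitA+ DEN+WAD library. It stood at 35.8 and 19.7 CPM in the VitA-Col1a1+ libraries and at 5.84 CPM in the library labelled VitA-Col1a1-.

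Igfbp3, Igfbp7 and Igf1r were present in all 5 libraries. Among the Col1a1+ libraries their levels lay closer within a treatment than within a gate. Igfbp3, whose product carries most circulating IGF in a ternary complex, stood at 2548 and 2837 CPM in the chow libraries (VitA+ and VitA-) and at 1219 and 1189 CPM in the matching DEN+WAD libraries. Igfbp7 stood at 6748 and 6124 CPM in chow and at 8955 and 8412 CPM in DEN+WAD. Igf1r stood at 114 and 116 CPM in chow and at 81.2 and 87.9 CPM in DEN+WAD. In the library labelled VitA-Col1a1- these genes were at 549, 5433 and 87.9 CPM. Although it also came from DEN+WAD liver, its Igfbp3 and Igfbp7 lay below those of every Col1a1+ library.

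Met and Igf2 were near the floor. Met gave 9 UMIs in the VitA+ DEN+WAD library, 3 in VitA+ chow, 31 in VitA-Col1a1+ DEN+WAD and 10 in VitA-Col1a1+ chow (0.0600 to 0.667 CPM), and 311 UMIs (2.94 CPM) in the library labelled VitA-Col1a1-. Igf2, a mainly fetal growth factor, reached 4.001 CPM on 60 UMIs in the VitA-Col1a1+ chow library and lay at 0.142 to 0.588 CPM in the others. Neither gene passed the filter of a mean of 5 CPM over 2 libraries in any comparison.

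**Figure D1:**
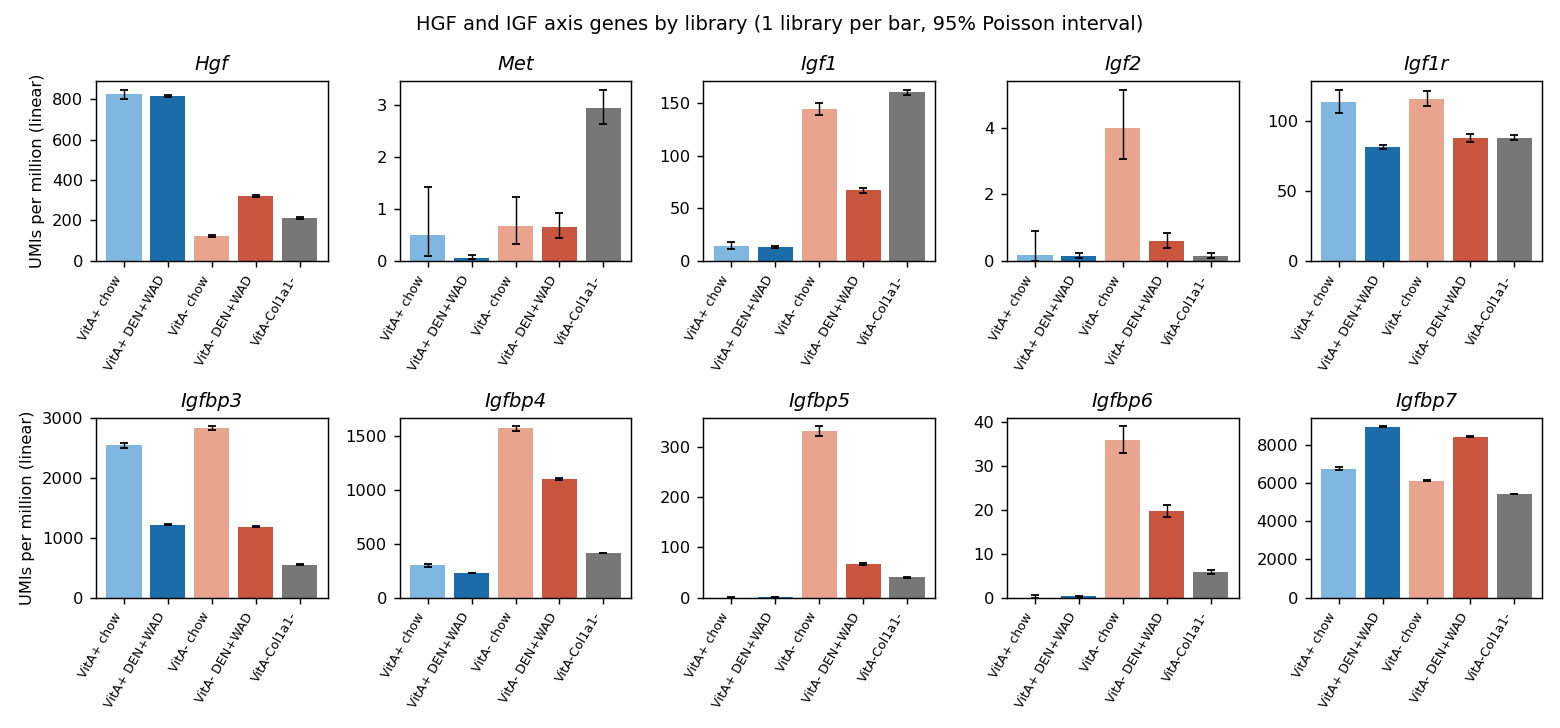
Level of each of the 10 genes (CPM, linear axis starting at 0 and scaled for each gene) in the 5 libraries, 1 bar for each library, with 95% Poisson intervals. Hgf is highest in the VitA+ bars (824 and 815), while Igf1, Igfbp4, Igfbp5 and Igfbp6 are higher in every VitA- bar than in either VitA+ bar.

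The first comparison asked how VitA- and VitA+ cells differed within the same kind of liver. In chow liver 8 of the 10 genes passed the filter, of which 4 were at least 2-fold higher and 1 at least 2-fold lower in the VitA- gate with the interval of the ratio apart from 1; of the 10168 genes tested, 10.5% were higher and 5.37% lower by the same rule. The median log2 ratio of the 8 was 1.27, against 0.07 over all genes tested. Igfbp5 and Igfbp6 passed the filter through the VitA- library alone, so neither could have been called lower, and both raise this median. Igf1 was 9.95-fold higher (95% interval 8.05 to 12.4) and Igfbp4 5.23-fold higher (4.99 to 5.49) in VitA- cells. Igfbp6 was at least 73.4-fold higher, with the VitA+ library set to the floor of 3 UMIs and a lower limit of the exact interval at 59.5. For Igfbp5 the ratio of 2044 rests on 1 UMI in the VitA+ library, and its interval reached from 367 to 80753. Hgf in VitA- cells was 0.1501 of its VitA+ level (0.142 to 0.158).

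In DEN+WAD liver 8 members again passed, with 4 higher and 1 lower in the VitA- gate, against 8.64% higher and 1.65% lower among 9905 genes tested, and a median log2 ratio of 1.19 against 0.09 over all genes. The 5 genes called were those called in chow liver. Igfbp5 (1.28 CPM in VitA+ cells) and Igfbp6 (0.320 CPM) again passed the filter through the VitA- library alone and could not have been called lower. Igf1 was 5.10-fold higher (4.82 to 5.40), Igfbp4 4.82-fold (4.76 to 4.89), Igfbp5 52.2-fold (45.1 to 60.7) and Igfbp6 61.4-fold (45.9 to 83.8). Hgf in VitA- cells was 0.393 of its VitA+ level (0.386 to 0.399). Igf1r, Igfbp3 and Igfbp7 were within 2-fold in both livers, with log2 ratios between -0.14 and 0.16.

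Other cell types moved with the gates. The summed level of 11 portal fibroblast genes (Thy1, Fbln2, Dpt and others) was 77.5 and 134 CPM in the VitA+ libraries of chow and DEN+WAD liver and 6144 and 2544 CPM in the VitA-Col1a1+ libraries, where 10 of the 11 were above 5 CPM; 10 endothelial genes summed to 635 and 307 CPM against 677 and 2025 CPM. In the same order, 7 smooth muscle genes (Myh11, Acta2 and others) summed to 744 and 1159 CPM against 4673 and 2514 CPM. One of them, Des, is also on the stellate list. The 8 macrophage genes summed to 2.28 to 3.33 CPM in the 4 Col1a1+ libraries, with Adgre1 at 0 in each. Taking only stellate-like clusters (115 and 8208 cells in the VitA+ libraries of chow and DEN+WAD liver, 92 and 1076 in the VitA-Col1a1+ libraries) changed the gaps. In DEN+WAD liver it gave log2 ratios of 1.88 in place of 2.35 for Igf1, 0.94 in place of 2.27 for Igfbp4 and -0.49 in place of -1.35 for Hgf. Igfbp5 kept its gap there, at 5.85 CPM in VitA- and 0.118 CPM in VitA+ cells (49.6-fold, 28.2 to 94.0), under the filter of 5 CPM. Igfbp6 had 7 UMIs in each, a ratio of 6.94 (2.08 to 23.2).

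In chow liver the stellate-like VitA- cells came from 2 clusters. Of the 92 cells, 65 lay in a cluster led by Ephx3, Rgs4 and Nrarp, with the pericyte genes Rgs5, Higd1b and Cspg4 also among its leading genes, and 27 in a cluster led by Fcna and Colec10. The first held 13 genes of the stellate list, of which only Rgs5 was among its 10 leading genes, and at the lower Leiden resolution its leading genes were found in an unnamed cluster. With all 92 cells the log2 ratios were 0.41 in place of 3.32 for Igf1, 1.18 in place of 2.39 for Igfbp4 and -1.66 in place of -2.74 for Hgf, and Igfbp5 stood at 589 CPM against 0 UMIs in VitA+ cells. With the 27 cells alone, a setting chosen after seeing the data, the log2 ratio was 1.36 for Igf1 (13 UMIs), 0.13 for Igfbp4 and -0.38 for Hgf, and Igfbp5 had 0 UMIs in both gates. Igfbp6 had 0 UMIs in both gates under either setting.

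The second comparison asked what the DEN+WAD regimen changed within a gate. In the VitA+Col1a1+ gate 6 members passed the filter, and 0 were at least 2-fold higher and 1 at least 2-fold lower in DEN+WAD, against 0.97% higher and 3.11% lower among 9592 genes tested. The lower one was Igfbp3, at 0.478 of its chow level (0.470 to 0.486); it lies close to the 2-fold limit and fell short of it under 5 of 10 other settings, with log2 ratios between -1.09 and -0.86. Hgf did not differ beyond counting error, with a ratio of 0.988 (0.961 to 1.02), and Igf1 had a ratio of 0.911 (0.736 to 1.14). Igf1r had a log2 ratio of -0.49, Igfbp4 one of -0.39 and Igfbp7 one of 0.41, each within 2-fold. The median over the 6 was -0.26, against -0.07 over all genes.

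In the VitA-Col1a1+ gate 8 members passed, with 1 higher and 3 lower in DEN+WAD, against 4.39% higher and 4.94% lower among 10241 genes tested. Hgf was 2.59-fold higher (2.46 to 2.72), while the summed stellate list went from 6277 CPM in chow to 13831 CPM in DEN+WAD. Under 10 other settings its log2 ratio lay between 1.04 and 1.57. The lowest was that of stellate-like clusters, whose chow cells included the 65 led by Ephx3, and without these the ratio turned to 0.850 (0.765 to 0.948), with 719 CPM in 27 chow cells and 612 CPM in 1076 DEN+WAD cells. The DEN+WAD cluster led by Ephx3, of 212 cells, was unnamed and so lay outside the stellate-like cells. Igfbp5 was at 0.201 of its chow level (0.192 to 0.210), Igfbp3 at 0.419 (0.414 to 0.424) and Igf1 at 0.466 (0.442 to 0.493). In stellate-like clusters Igfbp3 was at 0.536 (0.516 to 0.557), short of 2-fold, and at 0.470 (0.442 to 0.501) without the cells led by Ephx3. Igfbp5 was at 0.00994 of its chow level in stellate-like clusters. Without the cells led by Ephx3 it had 0 UMIs in chow and 100 UMIs (5.85 CPM) in DEN+WAD, under the filter. The Igf1 log2 ratio of -1.10 became 1.30 when only stellate-like clusters were taken, with 13.7 CPM in chow (24 UMIs) and 33.7 CPM in DEN+WAD. Without the 65 cells led by Ephx3 it was 0.34, and the interval of the ratio (0.735 to 2.39) included 1, while the portal fibroblast-like cells of the chow library, 207 of its 668 cells, held 201 CPM. In the matching DEN+WAD library 1 cluster of 26 cells was portal fibroblast-like, and a further 448 unnamed cells led by Dpep1, C7 and Lamc3 showed 8 portal fibroblast and 11 stellate list genes and held Igf1 at 163 CPM. Igfbp6 had a log2 ratio of -0.87, Igfbp4 one of -0.51, Igf1r one of -0.40 and Igfbp7 one of 0.46, and the median over the 8 was -0.69, against -0.03 over all genes. The 4 comparisons share libraries in pairs, so their values are not independent of each other.

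**Figure D2:**
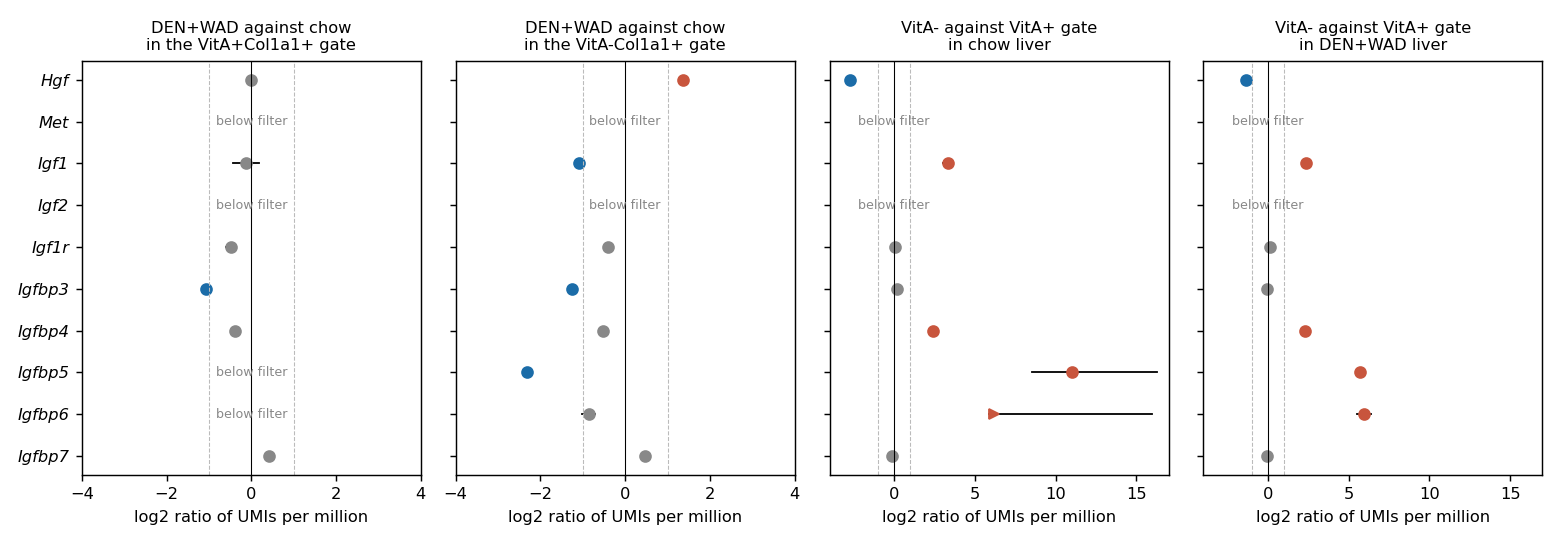
Log2 ratio of CPM for each gene in the 4 comparisons, with 95% counting intervals (lines, often shorter than the point) and dashed lines at 2-fold; red points are at least 2-fold higher, blue at least 2-fold lower and grey neither, and the triangle is a lower bound set by the floor of 3 UMIs, whose interval has no upper end. The 2 gate comparisons on the right place the same 4 genes to the right and Hgf to the left, and their axis is wider than that of the treatment comparisons.

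The other genes of the pathways were taken from 4 lists of 40 genes in all, chosen with earlier results of these data known. Of them, 21 passed the filter between gates in chow liver (6 higher in VitA-, 0 lower), 23 between gates in DEN+WAD liver (5 higher, 0 lower), 19 between treatments in the VitA+ gate (1 higher, 1 lower in DEN+WAD) and 23 in the VitA- gate (1 higher, 5 lower). Among all genes tested the shares higher and lower were, in the same order, 10.5% and 5.37%, 8.64% and 1.65%, 0.97% and 3.11%, and 4.39% and 4.94%. Among IGF carriers, receptors and proteases, Pappa, which codes for the protease that cuts IGFBP4, stood at 87.7 and 25.5 CPM in the VitA-Col1a1+ libraries of chow and DEN+WAD liver and at 0.488 CPM (3 UMIs) and 0.634 CPM in the VitA+ libraries. Stc2, whose product inhibits that protease, stood at 71.7 and 30.4 CPM against 0.163 CPM (1 UMI) and 0.660 CPM. Htra1, which codes for a secreted serine protease, was 11.0-fold higher in VitA- cells of chow liver and 4.54-fold higher in those of DEN+WAD liver. Within the VitA- gate Pappa had a log2 ratio of -1.78 between DEN+WAD and chow, and Igf2r, the scavenging receptor of IGF2, one of -1.53. Among the genes of IGF signalling, Irs2, which couples the receptor to phosphatidylinositol kinase signalling, had a log2 ratio of -1.28 there, and Igf2bp2, an RNA-binding protein gene, was at 0.447 of its chow level in the VitA+ gate. Among the genes of HGF activation, Plat, the tissue plasminogen activator, was 7.60-fold higher in VitA- than in VitA+ cells of chow liver and 3.50-fold higher in DEN+WAD than in chow in the VitA+ gate. Plaur, the urokinase receptor, was 2.92-fold higher in VitA- than in VitA+ cells of DEN+WAD liver and 2.78-fold higher in DEN+WAD than in chow in the VitA- gate. None of the 5 MET signalling genes passed 2-fold in any comparison.

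The library labelled VitA-Col1a1- held most non-mesenchymal cell types and showed where each axis gene lay among them. Met, the HGF receptor gene, was highest in epithelial classes: 44.3 CPM (31.0 to 61.3) in 71 cholangiocyte-like cells and 22.1 CPM (18.3 to 26.6) in 116 hepatocyte-like cells, against 4.93 CPM in macrophage-like, 0.613 CPM in endothelial-like and 0.401 CPM in stellate-like cells. T or NK-like cells held 0 Met UMIs, which allows up to 2.83 CPM (3 UMIs). Hgf was at 438 CPM in 3131 stellate-like cells, 155 CPM in 2460 endothelial-like cells, 35.0 CPM in 1068 macrophage-like cells and 5.199 CPM in hepatocyte-like cells. It also stood at 66.1 CPM in the 186 T or NK-like cells, a type that should lack it, which held Col1a1 at 493 CPM. These were 70 Hgf UMIs in 12 of the 186 cells, so the value comes from a few cells and is not a level shared by the class. The Hgf of macrophage-like, cholangiocyte-like and hepatocyte-like cells lay below this value and that of endothelial-like cells above it. Whether these classes make Hgf was not tested. The endothelial-like cells sorted as VitA-Col1a1+ from DEN+WAD liver held 88.1 CPM.

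Igf1 was highest in macrophage-like cells of that library, at 551 CPM (541 to 562), followed by cholangiocyte-like cells at 101 CPM, stellate-like cells at 76.5 CPM, hepatocyte-like cells at 60.3 CPM, T or NK-like cells at 15.1 CPM and endothelial-like cells at 12.2 CPM. It was high in both larger macrophage-like clusters: one of 598 cells led by Mmp12, Gpnmb and Mmp13 held 443 CPM, and one of 407 cells led by the Kupffer cell genes Clec4f, Vsig4 and Marco held 694 CPM. Igf1r was at 141 CPM in endothelial-like, 100 CPM in stellate-like and 75.1 CPM in cholangiocyte-like cells, but at 10.3 CPM in macrophage-like and 3.08 CPM in hepatocyte-like cells, below the 18.9 CPM of T or NK-like cells. The classes with the most Igf1 and the most Igf1r were different ones.

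Igfbp4 was shared by endothelial-like cells (994 CPM in the library labelled VitA-Col1a1- and 1182 CPM in VitA-Col1a1+ DEN+WAD) and portal fibroblast-like cells (1914 CPM in VitA-Col1a1+ chow), and was lower in stellate-like cells, at 204 to 596 CPM over the 5 libraries (596 CPM in the VitA- chow cells, and 288 CPM without the 65 led by Ephx3). Igfbp3 was at 874 to 2115 CPM in stellate-like cells and at 37.8 and 63.4 CPM in endothelial-like cells. Igfbp7 was at 6847 to 10000.1 CPM in stellate-like cells, 2853 and 4087 CPM in endothelial-like cells and 398 CPM in macrophage-like cells. Igfbp6 reached 61.3 CPM in portal fibroblast-like cells and at most 4.51 CPM in stellate-like cells of any library.

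Single clusters carried much of Igfbp5. In the VitA-Col1a1+ chow library it stood at 2214 CPM in 52 cells led by Slc11a1 and S100a4 with Igfbp5 itself next, at 817 CPM in the 65 cells led by Ephx3 and Rgs4, and at 16.7 and 225 CPM in the 2 portal fibroblast-like clusters of at least 50 cells. The 52 cells were unnamed, with smooth muscle as their best list. All 207 portal fibroblast-like cells of that library, including a smaller cluster of 42 cells, held 203 CPM. Under DEN+WAD it was highest in that gate, at 431 CPM, in 212 unnamed cells led by Ephx3, Acta2 and Aspn. The members and Col1a1 were kept out of the genes used for clustering.

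**Figure D3:**
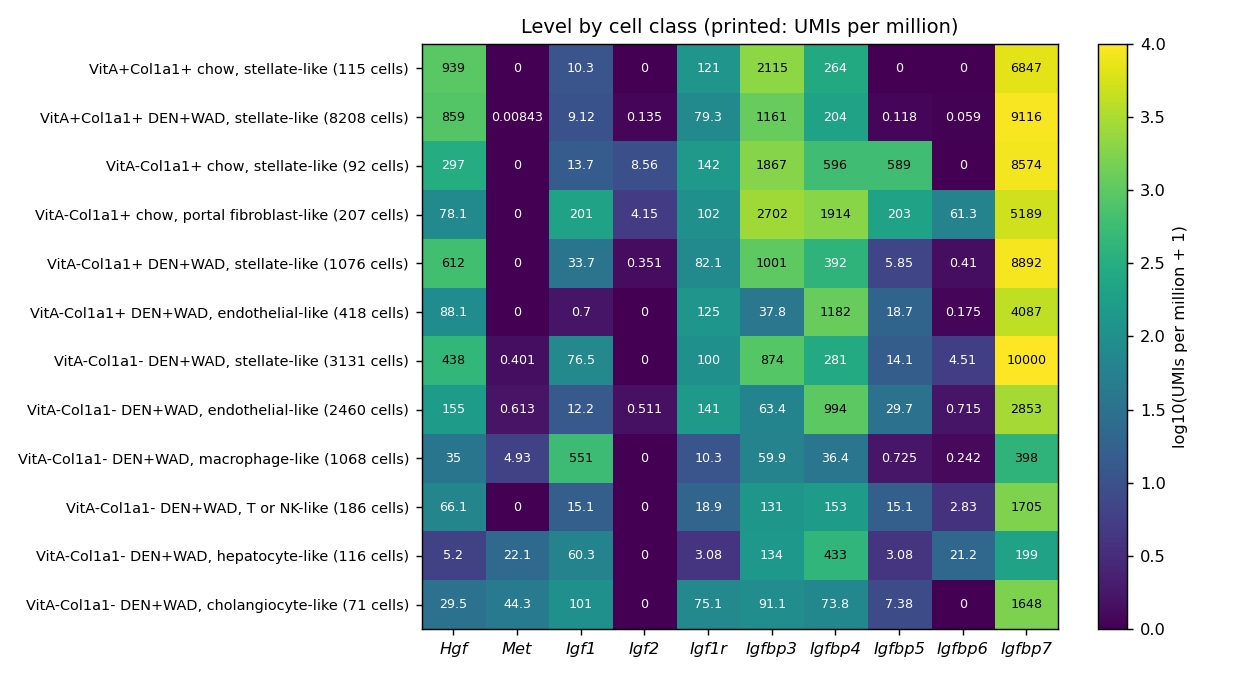
Level of each gene (printed, CPM; colour, log10 of that value plus 1) in each named cell class of at least 50 cells in the 5 libraries. Met is above 20 only in cholangiocyte-like and hepatocyte-like cells, Igf1 is highest in macrophage-like cells (551), and Hgf is highest in the stellate-like cells of the VitA+ libraries (939 and 859); 65 of the 92 stellate-like cells of VitA-Col1a1+ chow are those led by Ephx3.

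Over 58 clusters of at least 50 cells from the 5 libraries, the genes whose log2(CPM + 1) ran most like each member were listed by Pearson's r among 11313 genes. The clusters of a library share its free RNA and depth, so these values describe these clusters. Hgf ran closest to Masp1 (r = 0.95), Ntn1 (0.91) and Vipr1 (0.91), and Vipr1 is on the stellate list. Igf1 ran closest to Anpep (0.83), Mmp19 (0.78) and Fam20c (0.78), and Met to Lsr (0.89), Stra6l (0.86) and Rnf128 (0.85). Igf1r ran closest to Pxdn (0.93), Amotl1 (0.90) and Prex2 (0.90). Among the binding proteins the closest genes were Prnp, C1s1 and Heyl for Igfbp3 (0.94, 0.93 and 0.92), Abat, Mn1 and Cntfr for Igfbp4 (0.85, 0.85 and 0.80), and Galnt15, Nab1 and Pdlim3 for Igfbp5 (0.87, 0.85 and 0.85). For Igfbp6 they were Gria3, Fmod and Itgbl1 (0.84, 0.83 and 0.83), and for Igfbp7 they were Serpinh1, Mxra7 and Mxra8 (each 0.96). Igf2 was below 20 CPM in every cluster and was left out.

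Cells were next grouped by their own Col1a1 level, as UMIs per 10000 UMIs of the cell (0, under 5, 5 to 20, over 20), to set Hgf beside collagen expression within a library. In the VitA+Col1a1+ gate under DEN+WAD, Hgf stood at 869 CPM in 5076 cells with 0 Col1a1, 825 CPM in 4374 cells under 5, 652 CPM in 875 cells from 5 to 20 and 415 CPM in 156 cells over 20. The ratio of the last group to the first was 0.478 (0.455 to 0.502). Median UMIs per cell went along these groups from 12409.5 to 23517, the summed stellate list from 37399 to 11882 CPM and the portal fibroblast list from 51.8 to 1370 CPM, and their part in the result was not tested. The log2 ratio was -0.79 in place of -1.06 in stellate-like clusters alone, -0.96 with groups set on thinned cells, and -0.38 in cells between the lower and upper quartile of UMIs, where 13 cells were over 20.

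In the VitA-Col1a1+ gate under DEN+WAD, Hgf stood at 340, 461, 251 and 142 CPM along the 4 groups (761, 858, 888 and 222 cells), so the group with 0 Col1a1 was not the highest. Only 38.0% of that group lay in mesenchymal-like clusters, and 10 endothelial genes summed to 7499 CPM in it, against 88.4 CPM in the group over 20. Within mesenchymal-like clusters the levels were 723, 517, 251 and 142 CPM, a ratio of 0.197 (0.181 to 0.213) between the last group and the first, where all cells gave 0.418 (0.386 to 0.452). Along these mesenchymal-like groups the stellate list went from 33040 to 6826 CPM and the portal fibroblast list from 237 to 5652 CPM, and their part in the result was not tested. Within stellate-like clusters, with 10 cells over 20, the ratio was 0.675 (0.544 to 0.829). In VitA-Col1a1+ cells of chow liver Hgf stood at 255, 303, 113 and 70.7 CPM in all cells (54, 64, 401 and 149 cells) and at 444, 347, 113 and 70.7 CPM within mesenchymal-like clusters, where the first group held 21 cells. VitA+Col1a1+ chow cells gave 884, 784 and 675 CPM in 118, 131 and 10 cells, and no cell of that library was over 20.

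The library labelled VitA-Col1a1- went the other way when all its cells were counted. Hgf stood at 97.7 CPM in 5152 cells with 0 Col1a1, 282 CPM under 5, 335 CPM from 5 to 20 and 253 CPM in 1307 cells over 20, a ratio of 2.59 (2.48 to 2.70). Only 14.7% of the cells with 0 Col1a1 lay in mesenchymal-like clusters, against 93.9% of those over 20. Within those clusters the levels were 434, 460, 345 and 255 CPM, and the ratio turned to 0.588 (0.550 to 0.630), although the 755 mesenchymal-like cells with 0 Col1a1 had a median of only 1267 UMIs.

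**Figure D4:**
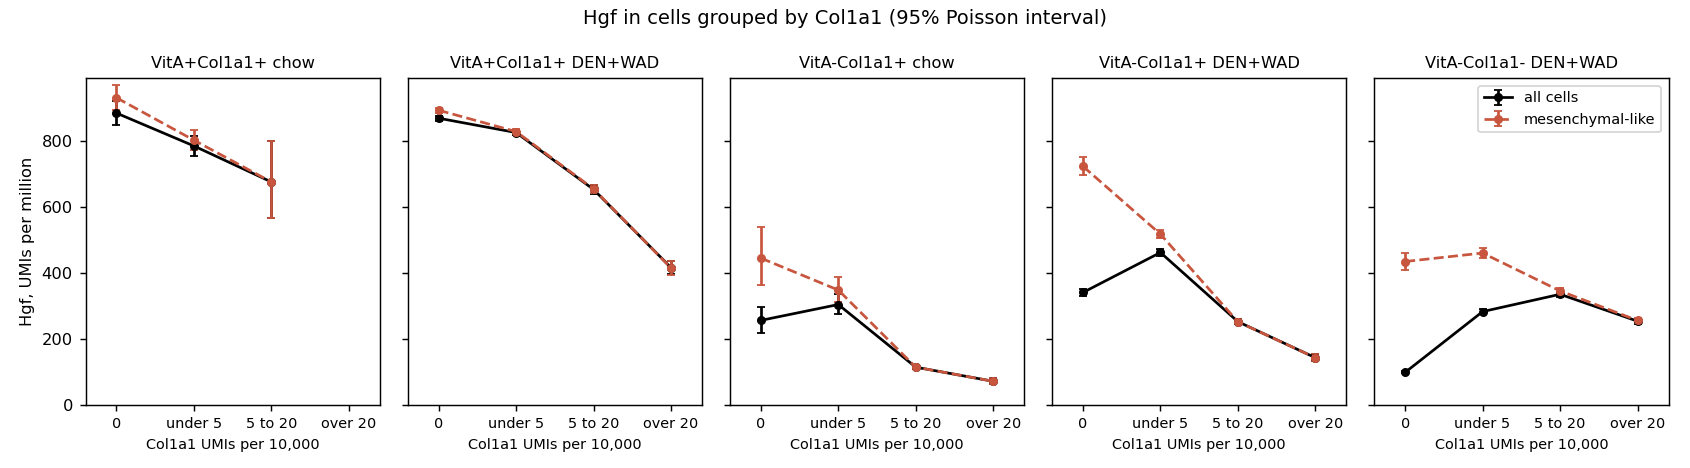
Hgf level (CPM, linear axis from 0, with 95% Poisson intervals) in cells grouped by Col1a1 UMIs per 10,000 in each library, for all cells (black) and for mesenchymal-like clusters (red, dashed). Within mesenchymal-like clusters Hgf is lower in the group over 20 than in the group at 0 in all 4 libraries that hold such cells, and over all cells the library labelled VitA-Col1a1- goes from 97.7 to 253.

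Within mesenchymal-like clusters Igf1 and Igfbp6 were higher in cells with more Col1a1, where Hgf was lower. Along the same groups, from 0 to over 20, the portal fibroblast list went from 38.0 to 1378 CPM in VitA+Col1a1+ DEN+WAD, from 237 to 5652 CPM in VitA-Col1a1+ DEN+WAD, from 754 to 8609 CPM in VitA-Col1a1+ chow and from 363 to 2270 CPM in the library labelled VitA-Col1a1-, and its part in these results was not tested. Within mesenchymal-like clusters Igf1 went from 5.24 CPM at 0 Col1a1 to 135 CPM over 20 in VitA+Col1a1+ DEN+WAD, from 23.4 to 170 CPM in VitA-Col1a1+ DEN+WAD, from 39.2 to 248 CPM in VitA-Col1a1+ chow and from 36.4 to 134 CPM in the library labelled VitA-Col1a1-. The ratios were 25.8 (22.5 to 29.8), 7.29 (5.88 to 9.13), 6.34 (3.32 to 13.9) and 3.68 (2.97 to 4.60) in that order. Within stellate-like clusters they were 8.65 (6.03 to 12.1), 1.52 (0.542 to 3.46) on 10 cells over 20, a value below 1 in VitA-Col1a1+ chow (0 UMIs in 6 cells over 20, against 6 UMIs in 11 cells at 0) and 3.61 (2.88 to 4.57). Over all cells of the library labelled VitA-Col1a1- the Igf1 ratio was 0.550 (0.526 to 0.575), and 889 of the 1068 macrophage-like cells were in the group at 0. Igfbp6 in mesenchymal-like cells over 20 was at 10.6 CPM in the DEN+WAD library of the VitA+Col1a1+ gate, 83.2 CPM in VitA-Col1a1+ DEN+WAD, 86.9 CPM in VitA-Col1a1+ chow and 19.1 CPM in the library labelled VitA-Col1a1-, and at most 1.24 CPM in the groups at 0. Within stellate-like clusters of the Col1a1+ libraries it had at most 2 UMIs in the groups at 0 and over 20.

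Igfbp4 depended on which clusters were taken. Within mesenchymal-like clusters, from 0 to over 20, it went from 313 to 1541 CPM in VitA-Col1a1+ DEN+WAD (ratio 4.93, 4.64 to 5.24) and from 335 to 1689 CPM in VitA-Col1a1+ chow (5.03, 4.02 to 6.39), but only from 214 to 310 CPM under DEN+WAD in the VitA+Col1a1+ gate (1.45, 1.37 to 1.54). Within stellate-like clusters the ratio turned to 0.300 (0.224 to 0.392) in the VitA+Col1a1+ gate under DEN+WAD, was 0.738 (0.527 to 1.01) in the VitA-Col1a1+ gate and 2.43 (1.79 to 3.32) in its chow library. That last value set 6 cells over 20 against 11 at 0, with the stellate list at 13997 and 28410 CPM. The stellate-like cells of that library include those led by Ephx3, and their part in it was not tested. Igfbp3 showed no common direction. It was at 0.366 of its level at 0 Col1a1 in the cells over 20 of VitA+Col1a1+ DEN+WAD (0.350 to 0.383) and at 1.67 times in those of VitA-Col1a1+ chow (1.49 to 1.89). Within mesenchymal-like clusters Igfbp7 differed by at most 1.502-fold between the groups at 0 and over 20 in any library, and the interval of the Igf1r ratio included 1 in 3 of the 4 libraries.

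**Figure D5:**
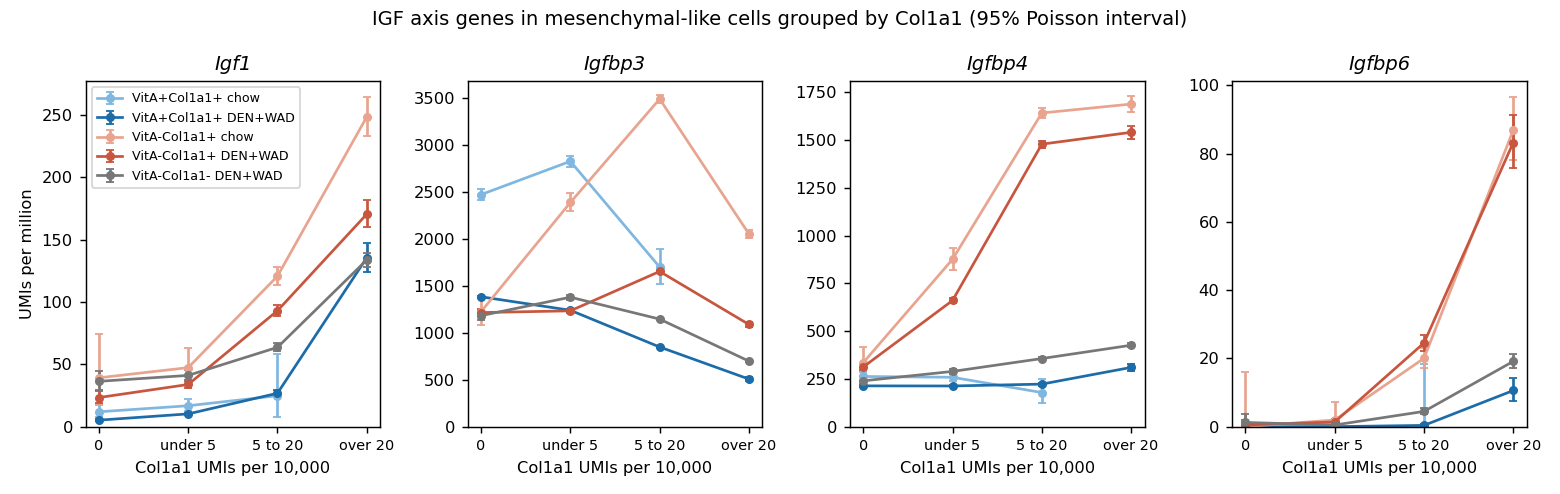
Levels of Igf1, Igfbp3, Igfbp4 and Igfbp6 (CPM, linear axes from 0, with 95% Poisson intervals) in mesenchymal-like cells grouped by Col1a1 UMIs per 10,000, 1 line for each library. Igf1 and Igfbp6 are highest in the group over 20 of every library that holds it, while the Igfbp3 lines take different courses.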

How the data were processed

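Single-cell 3' RNA-seq of the 5 sorted libraries was analysed, 1 library per group as the labels assign them. The authors deposited raw counts of UMIs for each gene in each barcode. The authors used Cell Ranger 3.1.0 on mm10, per the labels and methods, while 1 table header, in the VitA-Col1a1- library, gives 6.1.2. The labels name more than one kit version, and which library used which is not given in the sources used here.

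UMIs were summed over all deposited barcodes (lowest total 500) and scaled to 1000000 (CPM). Levels carry exact Poisson, ratios exact conditional binomial and shares exact Clopper-Pearson 95% intervals, for counting error only. A call needed at least 2-fold, an interval apart from 1 and a mean of 5 CPM. A gene at 0 UMIs took a floor of 3. The rule recovered changes planted in counts simulated without variation between mice or libraries, which is no check on calls made without replicates.

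Each library was clustered in scanpy 1.11.5 (2000 variable genes, 30 components, 15 neighbours, Leiden resolution 1, seed 7) without the members or Col1a1. Clusters were named from 16 marker lists by a rule chosen after seeing the data (at least 3 list genes, each in 25% of cells). Mesenchymal-like clusters are those whose best list was stellate, portal fibroblast or smooth muscle, named or not, with some left out. Left out were clusters with at least 75% of an unrelated list found, or with more leading genes from an unrelated list than from the mesenchymal ones. Also left out were those with median UMIs below the library median divided by 3 and no mesenchymal leading gene. Shares of cells without a name were 21.5% to 55.6%. Scrublet doublet scores were computed and no cell was removed in the main values. Shares of cells were taken after thinning to 2000 UMIs, which left out 4 to 1439 shallower cells per library.

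TMM factors came from edgeR 4.0.16 and size factors from DESeq2 1.42.0, as alternatives only. Of the gene identifiers, 99.6% were found in GENCODE M21, and promoters were taken from RefSeq. Members, pathway lists and marker lists were chosen with earlier results of these data known. Pathway genes are named by the 4 largest log2 ratios past 2-fold in each comparison.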

Additional observations from a re-analysis of the deposited data

Results flagged for a closer look

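Igfbp5 went in opposite directions under DEN+WAD in the 2 gates, with both counting intervals apart from no change. In the VitA+Col1a1+ gate its log2 ratio to chow was 2.98, which rests on 1 UMI in chow and on a gene under the filter. In the VitA-Col1a1+ gate it was -2.31. Within mesenchymal-like clusters the first was 1.14 with an interval that includes 0, and the second -2.17. The stellate-like clusters of VitA+ chow liver held 0 Igfbp5 UMIs, so no ratio is given for them. Those of the VitA-Col1a1+ gate gave -6.65. Without the one led by Ephx3, left out after seeing the data, they held 0 UMIs in chow and 100 in DEN+WAD, which shows no fall. The difference between the gates was not tested.

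Igfbp3 went in opposite directions between the gates in the 2 livers. The log2 ratio of VitA- to VitA+ cells was 0.16 in chow liver and -0.036 in DEN+WAD liver. Within mesenchymal-like clusters the values were 0.17 and 0.18, and within stellate-like clusters they were -0.18 and -0.21. Without the stellate-like cluster led by Ephx3, left out after seeing the data, the chow value was 0.0098. The difference between the livers was not tested.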

How the results depend on the processing

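No paired analysis was possible because each group holds 1 library and no replicates. Of the alternative counts of members past 2-fold, 40 stayed within 1.5 times the reported count and 10 did not. For DEN+WAD against chow in the VitA+Col1a1+ gate the count of 1 became 0 under TMM factors, DESeq2 size factors, the mean over cells, stellate-like clusters and thinning, and 3 without a filter. Stellate-like clusters left 3 of 5 between gates in chow liver and 1 of 5 in DEN+WAD liver, where Igfbp5 and Igfbp6 were under the filter at log2 ratios of 5.63 and 2.80. Stellate-like clusters without the one led by Ephx3, a setting chosen after seeing the data, left 1 of 5 between gates in chow liver and 1 of 4 between treatments in the VitA- gate. TMM moved the median log2 ratio of all genes from -0.07 to 0.12 in the VitA+ treatment comparison and from 0.09 to -0.12 between gates in DEN+WAD liver. Among the alternative log2 ratios of single members, 221 moved by less than their interval, 162 by more, and 3 reversed a called value, all for DEN+WAD against chow in the VitA- gate: Igf1 at 1.30 in stellate-like clusters and 0.34 without the one led by Ephx3, and Hgf at -0.23 without it. The causes were not tested. The mean over cells was called by fold alone.

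Hgf in cells over 20 against 0 Col1a1 UMIs per 10000 had log2 ratios of -1.06 (VitA+Col1a1+ DEN+WAD), -1.26 (VitA-Col1a1+ DEN+WAD), -1.85 (VitA-Col1a1+ chow) and 1.37 (labelled VitA-Col1a1-). Mesenchymal-like clusters gave -2.35, -2.65 and, reversed, -0.77 in the last 3. Stellate-like clusters gave -0.79, -0.57 and, reversed, -0.36 in the DEN+WAD libraries. Groups on thinned cells gave -0.96, -1.44, -1.21 and 0.83. Cells between the quartiles of UMIs gave -0.38, -1.46, -2.22 and 0.87. The mean over cells gave -0.91 and -1.04 in the Col1a1+ DEN+WAD libraries. Depth limits Met, Igf2, Igfbp5 and Igfbp6 in the VitA+ chow library, where 3 UMIs are 0.488 CPM. Of the alternative shares of cells, 124 moved past their interval and 26 did not.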
